A study of Mus musculus with 2 samples.

Results

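The genes described here are 9 survival and death genes of neutrophils: Mcl1, Bcl2a1a, Bcl2a1b, Bcl2a1d, Bcl2l11, Fas, Tnfrsf23, Tnfrsf1b and G0s2. They were taken by symbol from the 28692 genes of both deposited single-cell count matrices, and all 9 were found in both. Their levels were followed along the neutrophil states, set against the macrophages of the same tumors, and compared between the 2 libraries.

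The cells came from tumors of the mouse line 4T1, a triple-negative breast carcinoma, grown in the mammary fat pad of female BALB/c mice of 8 to 10 weeks. 4T1p tumors were made from the parental cells, which resist anti-PD1. 4T1m tumors were made from a polyclonal population that had been mutagenized with MNNG and responds to anti-PD1. Both tumor types were collected after 2 weeks of anti-PD1 (clone RMP1-14), so no library without treatment was analysed here, and GR-1+ cells were enriched with magnetic beads before droplet-based 3′ RNA sequencing. The GR-1 antibody binds Ly6G, a neutrophil protein, and Ly6C, which monocytes also carry. There was 1 library per tumor type, so no test between tumor types was possible, and the number of animals behind each library is not given in the sources used here. A difference between the libraries cannot be told apart from a difference between 2 preparations.

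A neutrophil lives for a short time and its death is decided in part by a balance of proteins at the mitochondrion. Mcl1 and the A1 proteins, which the Bcl2a1 genes encode, hold the pore-forming proteins Bax and Bak in check, while Bim, the product of Bcl2l11, is a BH3-only protein that binds these guards and frees the pore formers. Fas is a receptor that starts the caspase cascade from the cell surface, Tnfrsf23 is a decoy receptor for TRAIL that carries no death domain, and Tnfrsf1b encodes the second TNF receptor, which also lacks a death domain. G0s2 blocks the triglyceride lipase that Pnpla2 encodes and can also bind Bcl2.

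The Bcl2a1 genes are near-identical neighbours, which limits how far their counts can be separated. On mm10 (GRCm38) they lie on chromosome 9, with Bcl2a1d (ENSMUSG00000099974) at 88723285 to 88731914 on the minus strand, Bcl2a1a (ENSMUSG00000102037) at 88956900 to 88962419 on the plus strand and Bcl2a1b (ENSMUSG00000089929) at 89199209 to 89207827 on the plus strand. The first 120 coding bases are shown because they hold 7 of the 12 positions at which the 3 coding sequences of 516 bases differ. Capitals mark those 7 positions.
Bcl2a1a: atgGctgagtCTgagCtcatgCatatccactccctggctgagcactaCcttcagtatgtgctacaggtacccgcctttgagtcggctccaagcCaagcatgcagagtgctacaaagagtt
Bcl2a1b: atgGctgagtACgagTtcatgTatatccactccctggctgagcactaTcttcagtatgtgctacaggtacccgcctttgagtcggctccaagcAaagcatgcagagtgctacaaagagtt
Bcl2a1d: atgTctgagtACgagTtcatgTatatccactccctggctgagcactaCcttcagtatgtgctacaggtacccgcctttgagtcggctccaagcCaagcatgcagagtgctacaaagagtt
Over the whole coding sequence Bcl2a1a and Bcl2a1b differed at 11 positions, Bcl2a1a and Bcl2a1d at 7, and Bcl2a1b and Bcl2a1d at 6. A 3′ library reads mostly the end of a transcript. In the last 300 bases of the annotated transcripts, 39.8% of the 90-base windows of Bcl2a1a, 50.2% of those of Bcl2a1b and 89.6% of those of Bcl2a1d also occurred in another Bcl2a1 gene. Each of the 3 is therefore reported as uncertain, and their summed count is given beside them as the Bcl2a1 sum.

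The likeness extends to the promoters of the genes. The stretches below are from the RefSeq promoters on GRCm38.p6, and they are shown because those of Bcl2a1a and Bcl2a1b are nearly the same. They lie before the RefSeq start, which differs from the gene positions above, so each runs partly into the gene as placed there. Capitals mark the letters GAGGAAGT, a PU.1-like ETS motif.
Bcl2a1a, chr9:88956774-88956913, plus strand: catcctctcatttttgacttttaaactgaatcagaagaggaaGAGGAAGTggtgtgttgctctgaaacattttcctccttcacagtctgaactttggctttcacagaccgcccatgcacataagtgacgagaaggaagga
Bcl2a1b, chr9:89199083-89199222, plus strand: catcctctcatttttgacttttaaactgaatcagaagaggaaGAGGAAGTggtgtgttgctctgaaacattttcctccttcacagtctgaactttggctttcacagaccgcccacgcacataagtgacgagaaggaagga
Bcl2a1d, chr9:88731857-88731996, minus strand: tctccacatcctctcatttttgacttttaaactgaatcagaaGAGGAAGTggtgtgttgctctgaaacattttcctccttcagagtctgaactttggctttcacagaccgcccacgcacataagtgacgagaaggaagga
The stretches of Bcl2a1a and Bcl2a1b differed at 1 base of 140, an identity of 99.3%. On both strands of the 250 bases before the RefSeq start, GAGGAAGT was found in 2.44% of 32851 promoters and in these 3 of the 9 genes. The AP-1-like letters TGANTCA were found in 6.75% of promoters and in the same 3 genes and Fas. A kB-like motif, present in 1.21% of promoters, and the CRE letters TGACGTCA, present in 1.55%, were in none of the 9 windows.

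The promoters of Mcl1 and Bcl2l11, the guard and the BH3-only gene that are set against each other below, held other letters. Mcl1 (ENSMUSG00000038612) lies on chromosome 3 at 95658788 to 95663176, and Bcl2l11 (ENSMUSG00000027381) on chromosome 2 at 128126038 to 128162547, both on the plus strand. Capitals mark the ETS core CGGAAG or its reverse complement, and in Bcl2l11 also the reverse complement of the FOXO-like letters TGTTTAC.
Mcl1, chr3:95658601-95658720, plus strand: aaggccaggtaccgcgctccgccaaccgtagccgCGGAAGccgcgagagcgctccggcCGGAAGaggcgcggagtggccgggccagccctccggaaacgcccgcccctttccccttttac
Bcl2l11, chr2:128125798-128125943, plus strand: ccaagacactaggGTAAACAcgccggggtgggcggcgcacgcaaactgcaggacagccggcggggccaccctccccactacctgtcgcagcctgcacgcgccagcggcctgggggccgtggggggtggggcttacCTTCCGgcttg
The ETS core was found in 13.6% of promoters and, among the 9 genes, in Mcl1, Bcl2l11 and Tnfrsf1b. The FOXO-like letters were found in 3.17% of promoters and in Bcl2l11 alone of the 9. The C/EBP-like letters TTGCNNAA (9.56% of promoters) were in Tnfrsf23 and the letters ACGTG (16.6%) in Fas. These matches describe the windows and show no binding.

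The matrices held 1641 barcodes with 9021132 UMIs (unique molecular identifiers, one per captured transcript) for 4T1p and 2749 barcodes with 14840190 UMIs for 4T1m, and they shared 0 barcodes. The median UMIs per barcode were 2066 and 2763. For the same names the study gives these medians in the opposite order, so each library is called by its deposited label throughout. If the names are exchanged in one source, every difference between 4T1m and 4T1p given here would turn. The limits of 250 to 5000 genes, at most 27000 UMIs and the study's upper limit on mitochondrial UMIs left 1128 and 2092 barcodes, and 1115 and 2048 after predicted doublets were removed. Clustering without the 9 genes gave 11 clusters, of which 4 were neutrophil-like by their markers (1242 cells, 244 of them from 4T1p and 998 from 4T1m) and 5 macrophage-like (1660 cells, 765 and 895). All 8 neutrophil markers, S100a8, S100a9, Csf3r and Cxcr2 among them, summed to 162540 and 163953 CPM (counts scaled to 1000000 UMIs) in the neutrophil-like cells of 4T1p and 4T1m, against 883 and 1243 in the macrophage-like cells. The 10 macrophage markers, Csf1r and C1qa among them, summed to 36065 and 24347 CPM in the macrophage-like cells and to 2755 and 1739 in the neutrophil-like cells. A cycling cluster of 199 cells was left unnamed. A cluster of 62 cells with B and T cell genes is given beside the shares of cells. B and T cells themselves express Mcl1, the Bcl2a1 genes, Bcl2l11 and Fas, so it serves as background for G0s2 and Tnfrsf23 rather than for those. Neutrophil-like cells were 24.2% of the cells of both classes in 4T1p (95% interval 21.6 to 26.9, n = 1009) and 52.7% in 4T1m (50.4 to 55.0, n = 1893). These intervals cover counting error only, and the shares depend on the barcodes kept. With a UMI of Ptprc required, neutrophil-like and macrophage-like cells numbered 172 and 232 in 4T1p and 896 and 463 in 4T1m. Without the low-UMI macrophage-like cluster 0 they numbered 244 and 509 in 4T1p and 998 and 571 in 4T1m.

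Levels below are CPM of the UMIs summed over the cells of a group. Counts from 3′ libraries are not scaled to gene length, so a level is compared only with the same gene elsewhere, and intervals are exact 95% intervals that cover counting error only. The question was first how the 9 genes divide neutrophils from macrophages. Mcl1, Bcl2l11, Fas, Tnfrsf23, Tnfrsf1b and G0s2 all had higher levels in the neutrophil-like cells, and the 3 Bcl2a1 genes all had lower ones. Of the 9 genes, 5 were higher by over 1 log2 unit where 11.1% of the 6083 genes with at least 200 UMIs were, and 3 were lower by over 1 log2 unit where 49.7% were. The median over all those genes was -0.98 and the median over the 9 was 1.08, and relative to the first of these the ratios were -0.36 for Bcl2a1a, -0.58 for Bcl2a1b and -1.43 for Bcl2a1d.

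Mcl1 had a level of 3736 CPM in the neutrophil-like and 1525 in the macrophage-like cells of 4T1p, and of 3424 and 1739 in 4T1m. The neutrophil-like level was above the macrophage-like one in both libraries. The log2 ratio was 1.08 over both (1.04 to 1.11), 1.29 within 4T1p and 0.98 within 4T1m. Shares of cells with a UMI are means over all possible draws of 1000 UMIs per cell, which left out 100 neutrophil-like and 470 macrophage-like cells with fewer. For Mcl1 the share was 93.4% of neutrophil-like cells (97.6% with all UMIs), 65.1% of macrophage-like cells and 50.8% of the lymphocyte cluster.

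The Bcl2a1 sum was 535 CPM in the neutrophil-like and 1200 in the macrophage-like cells of 4T1p, and 278 and 898 in 4T1m. The macrophage-like level was the higher one in both libraries, with log2 ratios of neutrophil-like over macrophage-like cells of -1.17 and -1.69. By gene, the levels in neutrophil-like cells of 4T1p and 4T1m were 129.8 and 86.3 CPM for Bcl2a1a, 363 and 161 for Bcl2a1b, and 42.4 and 30.2 for Bcl2a1d. In macrophage-like cells they were 264 and 229 for Bcl2a1a, 759.8 and 497 for Bcl2a1b, and 176 and 172 for Bcl2a1d. All 3 genes were lower in neutrophil-like cells in both libraries, with ratios over both of -1.35 (-1.51 to -1.19), -1.56 (-1.67 to -1.45) and -2.41 (-2.68 to -2.15).

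Macrophage RNA in neutrophil-like droplets was measured beside this. Csf1r, C1qa, C1qb, C1qc and Adgre1 summed in neutrophil-like cells to 2.68% of their macrophage-like level, whereas the Bcl2a1 sum there was 32.6% of its macrophage-like level (44.6% in 4T1p and 30.9% in 4T1m). In the 784 neutrophil-like cells without a UMI of these 5 genes, the Bcl2a1 sum was 274.5 CPM against 331 over all 1242. A cell without such a UMI can still hold macrophage RNA, so this set is not known to be free of it. The same limit holds wherever such cells are used below. At 1000 UMIs, 7.16% of neutrophil-like, 20.6% of macrophage-like and 0.373% of lymphocyte-cluster cells (interval up to 6.50%) held a UMI of Bcl2a1a. For Bcl2a1b the shares were 14.4%, 40.3% and 7.13%, and for Bcl2a1d 3.20%, 14.1% and 3.26%. The neutrophil-like shares of Bcl2a1b and Bcl2a1d lay within the interval of the lymphocyte cluster (2.14 to 16.6% and 0.405 to 11.2%), a cluster whose cells express these genes themselves.

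Bcl2l11 stood at 353 CPM in the neutrophil-like and 149 in the macrophage-like cells of 4T1p, and at 381 and 255 in 4T1m. The neutrophil-like level was the higher one in both libraries, and the ratio was 0.81 over both (0.72 to 0.91), 1.25 within 4T1p and 0.58 within 4T1m. In share of cells at 1000 UMIs the gene reached 28.4% of neutrophil-like cells, 13.8% of macrophage-like cells and 19.9% of the lymphocyte cluster, whose interval (10.8 to 32.0%) held the neutrophil-like value. The guard Mcl1 and the BH3-only gene Bcl2l11 thus both had the higher share of UMIs in neutrophil-like cells.

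The surface receptors divided the classes further. Fas (ENSMUSG00000024778, chromosome 19 at 34290666 to 34327772) had a level of 78.6 CPM in the neutrophil-like and 9.10 in the macrophage-like cells of 4T1p, and of 84.3 and 9.78 in 4T1m. The ratio over both was 3.13 (2.80 to 3.46), and the shares at 1000 UMIs were 8.33%, 0.868% and 2.10% for neutrophil-like, macrophage-like and lymphocyte-cluster cells. Tnfrsf23 (ENSMUSG00000037613, chromosome 7 at 143665809 to 143685872), the decoy TRAIL receptor, had 326 and 14.2 CPM in 4T1p and 292 and 16.3 in 4T1m. Its ratio was 4.27 (4.04 to 4.51), 4.52 within 4T1p and 4.17 within 4T1m, and 26.1% of neutrophil-like cells held a UMI at 1000 UMIs against 1.43% of macrophage-like and 1.17% of lymphocyte-cluster cells. Of its 169 macrophage-like UMIs, 97 were in cluster 3, at 26.8 CPM (21.7 to 32.6), where cluster 2 had 8.39 CPM and the lymphocyte cluster 11.5. The macrophage-like share as a whole lay within the interval of the lymphocyte cluster (0.00895 to 7.93%), which is too wide to tell low expression from background. Within the macrophage-like class, cluster 3 had a higher CPM than cluster 2. Tnfrsf1b (ENSMUSG00000028599, chromosome 4 at 145213463 to 145246870), the second TNF receptor, had 207 and 75.6 CPM in 4T1p and 259 and 101 in 4T1m. Its ratio was 1.44 (1.31 to 1.57), the lowest of the 3 receptors, and its shares at 1000 UMIs were 21.4%, 7.22% and 3.31%.

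G0s2 (ENSMUSG00000009633, chromosome 1 at 193272161 to 193273217) separated the classes most among the 9. It had 5054 CPM in the neutrophil-like and 17.5 in the macrophage-like cells of 4T1p, and 4821 and 27.2 in 4T1m. The ratio was 7.70 (7.52 to 7.88), with 8.17 within 4T1p and 7.47 within 4T1m. The macrophage-like level was 0.481% of the neutrophil-like one, and the 8 neutrophil markers were at 0.673% by the same measure. At 1000 UMIs, 74.1% of neutrophil-like cells, 1.79% of macrophage-like cells and 1.70% of lymphocyte-cluster cells held a UMI of G0s2. The macrophage-like share was within the interval of the lymphocyte cluster (0.0507 to 8.81%, n = 62). That interval is too wide to tell low expression from background, so no reading is drawn from it.

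The division held within each library. In 4T1p, 5 of the 8 members with enough UMIs were higher by over 1 log2 unit where 13.8% of 3031 genes were, and 3 were lower where 46.3% were. In 4T1m, 4 of 9 were higher where 11.7% of 4888 genes were, and 3 were lower where 47.4% were. Mcl1 (1.29 and 0.98) and Bcl2l11 (1.25 and 0.58) were past 1 log2 unit in 4T1p and not in 4T1m, while Fas had enough UMIs in 4T1m only. Among the alternatives run, the one scale on which a direction turned was UMIs per cell, with no division by the cells' totals. On that scale Mcl1 and Bcl2l11 gave -0.01 and -0.27 over both libraries, while Fas, Tnfrsf23 and G0s2 remained higher in neutrophil-like cells by over 1 log2 unit. Within 4T1p the turn was not seen. Mcl1 had 12.3 UMIs per neutrophil-like and 8.54 per macrophage-like cell there, and Bcl2l11 had 1.16 and 0.83. The median UMIs per cell of neutrophil-like and macrophage-like cells were 2715 and 1671 in 4T1p and 2482 and 4456 in 4T1m.

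**Figure D1:**
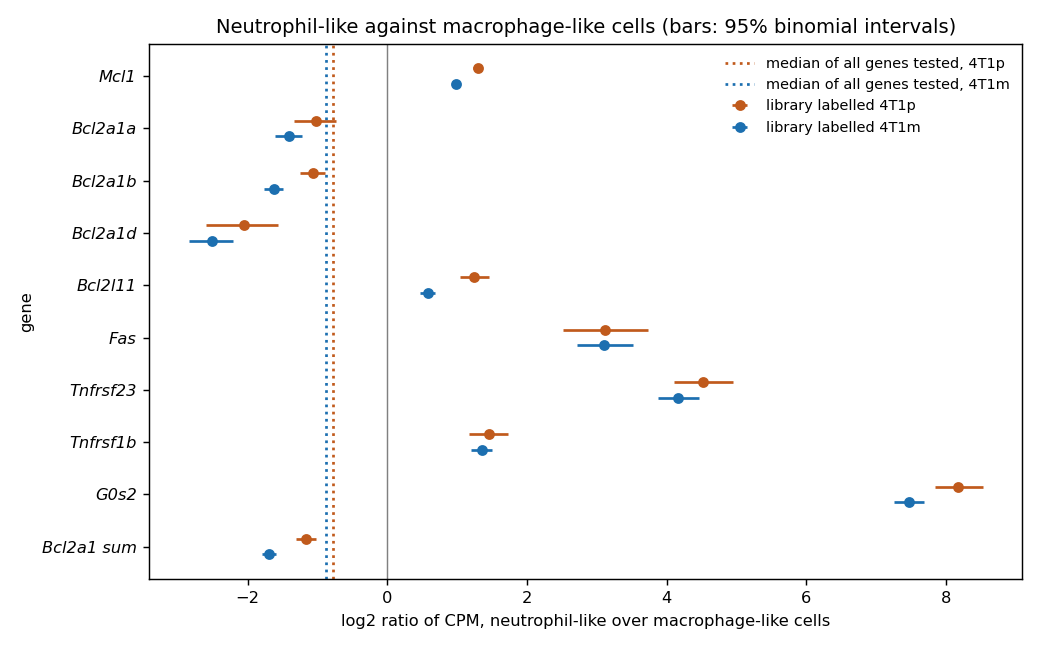
Log2 ratio of CPM in neutrophil-like over macrophage-like cells for each of the 9 genes and the Bcl2a1 sum, by library; bars are exact 95% intervals that cover counting error only, and dotted lines mark the median of all genes tested in each library. G0s2, Tnfrsf23 and Fas lie beyond 3 in each library, and the 3 Bcl2a1 genes lie below -1 in each.

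The neutrophil-like cells were then divided into their 4 clusters to see where along the neutrophil states the genes stood. Cluster 1 (558 cells) was led by Mirt1, Il1f9 and Csf1, cluster 5 (275 cells) by Slc2a3, Steap4 and Cxcr2, cluster 6 (236 cells) by Ccdc126, Ciart and Ppp1r3b, and cluster 8 (173 cells) by the granule genes Camp, Ngp and Ltf of immature neutrophils. All 4 held cells of both libraries, from 24 cells of 4T1p in cluster 8 to 429 cells of 4T1m in cluster 1.

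The Bcl2a1 sum varied widely among these clusters. It was 564 CPM in cluster 1 (529 to 600), 191 in cluster 8 (167 to 218), 113 in cluster 6 (83.9 to 149) and 47.4 in cluster 5 (30.0 to 71.1), and no neighbours in this order had overlapping intervals. The order was the same within each library. In 4T1p the sum was 801.6, 316, 201 and 80.4 CPM in clusters 1, 8, 6 and 5, and in 4T1m it was 488, 164, 84.0 and 42.5. Clusters 8, 6 and 5 rested on 67, 22 and 5 UMIs in 4T1p and on 161, 28 and 18 in 4T1m. Their order within a library is therefore less certain than over both. Bcl2a1b alone had 334, 137, 67.8 and 22.7 CPM over both libraries. The summed level of the 5 macrophage genes was 234, 119, 255 and 274 CPM in the same clusters, so it did not follow the order of the Bcl2a1 sum. In cells without a UMI of those genes, the Bcl2a1 sum was 491, 178, 77.6 and 34.2 CPM, and the order was kept. Cluster 5 rests on 11 UMIs there, and how much of its level came from macrophage RNA was not tested.

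Mcl1 was more even. Its level was 3994 CPM in cluster 1, 3863 in cluster 6 and 3745 in cluster 5. The interval of cluster 6 (3682 to 4050) overlapped those of both neighbours. Cluster 8 lay below the others at 2515 CPM (2426 to 2607), and over both libraries it was above the macrophage-like clusters, which ranged from 534 CPM in cluster 4 to 2047 in cluster 3. Within 4T1p it was at 2027 CPM, below macrophage-like cluster 9 at 2259, with overlapping intervals (1840 to 2228 and 2047 to 2488). Clusters 5 and 6 thus combined a high level of Mcl1 with a low Bcl2a1 sum, whereas cluster 1 was high in both.

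Bcl2l11 was at 521 CPM in cluster 1, 373 in cluster 6, 236 in cluster 8 and 202 in cluster 5, where the intervals of clusters 8 and 5 (209.5 to 265.5 and 164 to 246) overlapped. The highest levels of the BH3-only gene and of the Bcl2a1 sum among the neutrophil-like clusters therefore fell in the same cluster. Among macrophage-like cells, Bcl2l11 ranged from 33.2 CPM in cluster 4 to 318 in cluster 3, so the range within that class overlapped the range within neutrophil-like cells.

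Tnfrsf23 had another order. It was 639.6 CPM in cluster 6 (567 to 719), 432 in cluster 5 (376 to 495), 319 in cluster 1 (293 to 347) and 88.0 in cluster 8 (72.0 to 107), and no neighbours overlapped. In 4T1p cluster 5 was lower than cluster 1, at 241 against 373 CPM (15 and 156 UMIs). The place of cluster 5 therefore rests on 4T1m, where the values were 460 and 302. Tnfrsf1b was at 337 CPM in cluster 1 and 307 in cluster 6, with overlapping intervals, then 189 in cluster 5 and 122 in cluster 8. Fas was at 105 CPM in cluster 1, 76.9 in cluster 6, 72.1 in cluster 5 and 58.7 in cluster 8, and of these the intervals of clusters 1 and 8 (89.98 to 121.1 and 45.72 to 74.1) were clear of each other. The decoy receptor was thus the one receptor whose highest level lay outside cluster 1.

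G0s2 was at 5864 CPM in cluster 1, 4651 in cluster 5, 4641 in cluster 8 and 1840 in cluster 6. Clusters 5 and 8 could not be separated by their intervals (4461 to 4846 and 4519 to 4765). Cluster 6, the one with the highest level of Tnfrsf23, had the lowest level of G0s2 in both libraries, 1986 CPM in 4T1p and 1792 in 4T1m. Over both libraries no cluster outside the neutrophil-like class exceeded 47.2 CPM, the level in the low-UMI macrophage-like cluster 0, which was at 75.4 CPM in 4T1p.

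**Figure D2:**
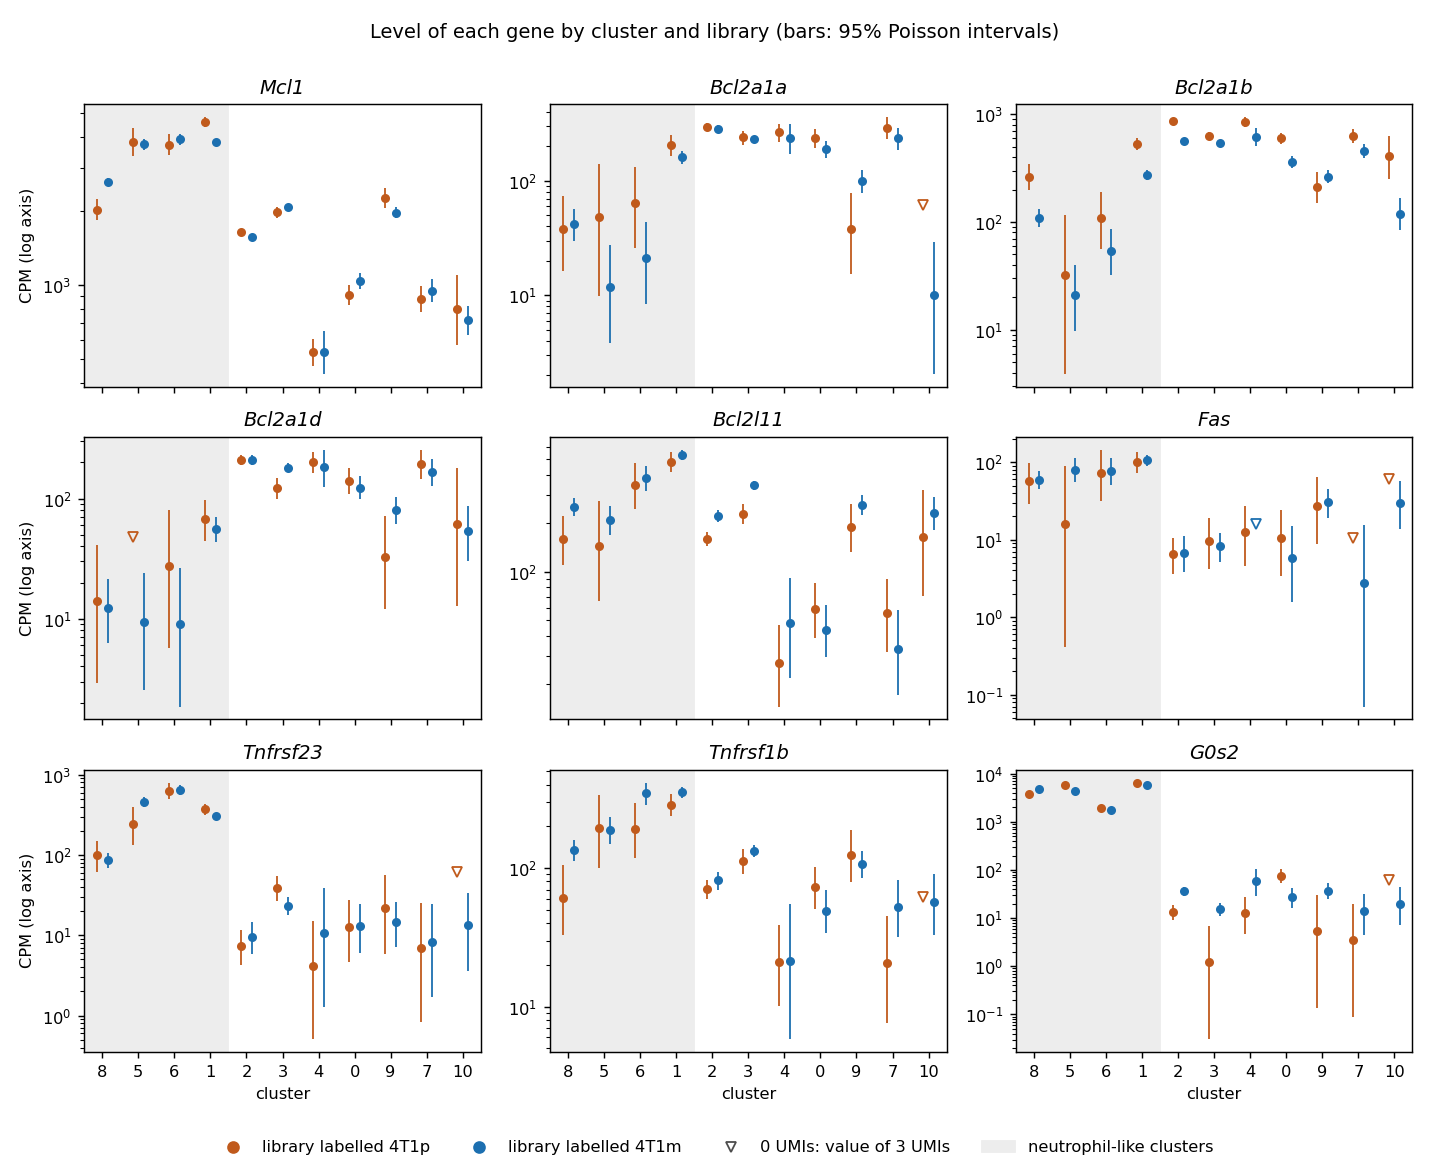
CPM of each of the 9 genes in each of the 11 clusters, by library, on log axes, with exact 95% Poisson intervals; open triangles stand at the value of 3 UMIs where a library had 0, and the 4 neutrophil-like clusters are shaded. Bcl2a1b is lowest in neutrophil-like cluster 5 in both libraries, and G0s2 is lowest among the 4 neutrophil-like clusters in cluster 6, at 1986 and 1792 CPM.

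An ordering that needs no clusters gave a second view. Neutrophil-like cells were ordered by their share of UMIs from 9 genes of early neutrophils (Camp, Ngp, Ltf, Lcn2, Cd177, Chil3, Retnlg, Mmp8 and Wfdc21) and cut into 5 bins of 248 or 249 cells, from the highest share (median 2.60% of UMIs) to the lowest (median 0%). The Bcl2a1 sum was 173, 285, 368, 504 and 568 CPM from bin 1 to bin 5, and its log2 ratio of bin 5 over bin 1 was 1.71 (1.45 to 1.97). It was higher in each bin than in the one before. Tnfrsf23 was 132, 299.6, 411, 425 and 437 CPM (ratio 1.73, 1.43 to 2.02), and Bcl2l11 was 257, 401, 461, 417 and 481 CPM (0.90, 0.66 to 1.15). Both had most of their difference between bins 1 and 3.

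Tnfrsf1b was 129.8, 300.9, 308, 289 and 347 CPM over the bins, with a ratio of 1.42, and Mcl1 was 2571, 3789, 3925, 4088 and 4138 CPM, with a ratio of 0.69. These 2 differed mainly between bins 1 and 2. Fas was 61.9, 66.5, 93.8, 124 and 102 CPM (0.73, 0.19 to 1.25), and within 4T1p its ratio was -0.06 (-1.47 to 1.27). G0s2 was highest in bin 2 and had 4130, 6447, 5372, 4453 and 4131 CPM, so that bin 5 and bin 1 were at nearly one level (interval of the ratio -0.07 to 0.07). Over both libraries it was the only member of the 9 for which this interval included 0, and its ratio was 0.22 within 4T1p (0.07 to 0.37) and -0.08 within 4T1m. Of the 6 members with at least 200 UMIs in these 2 bins, 3 were higher in bin 5 by over 1 log2 unit where 26.6% of 972 genes were, and 0 were lower where 14.1% were. The median over all these genes was 0.45 and over the 6 members 1.16.

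Other values moved along the bins with the 9 genes. The median UMIs per cell went from 4228 to 1908, and the 5 macrophage genes were at 124, 212, 237, 249 and 321 CPM. In cells without a UMI of those genes the Bcl2a1 sum was 154 CPM in bin 1, 514 in bin 4 and 346 in bin 5, so bin 5 was above bin 1 but below bin 4. The same cells were also ordered by the first principal component of their own expression, computed without the 9 genes. This component was separate from those used for clustering and was turned to run with the early share. On that ordering the Bcl2a1 sum was 214, 497, 463.5, 350 and 218 CPM from bin 1 to bin 5. It was highest in bin 2, and the interval of its ratio of bin 5 over bin 1 included 0, at 0.03 (-0.31 to 0.35). Tnfrsf23 had a ratio of 2.71, Tnfrsf1b 1.44, Bcl2l11 1.15, Mcl1 0.45, G0s2 -1.63 and Fas -0.65 (-1.39 to 0.03). The median UMIs per cell went from 4287 to 1820 along this ordering, so both orderings share a difference in UMIs per cell. The higher levels of Tnfrsf23, Tnfrsf1b, Bcl2l11 and Mcl1 at the far end were seen on both orderings. That of the Bcl2a1 sum was seen on one.

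**Figure D3:**
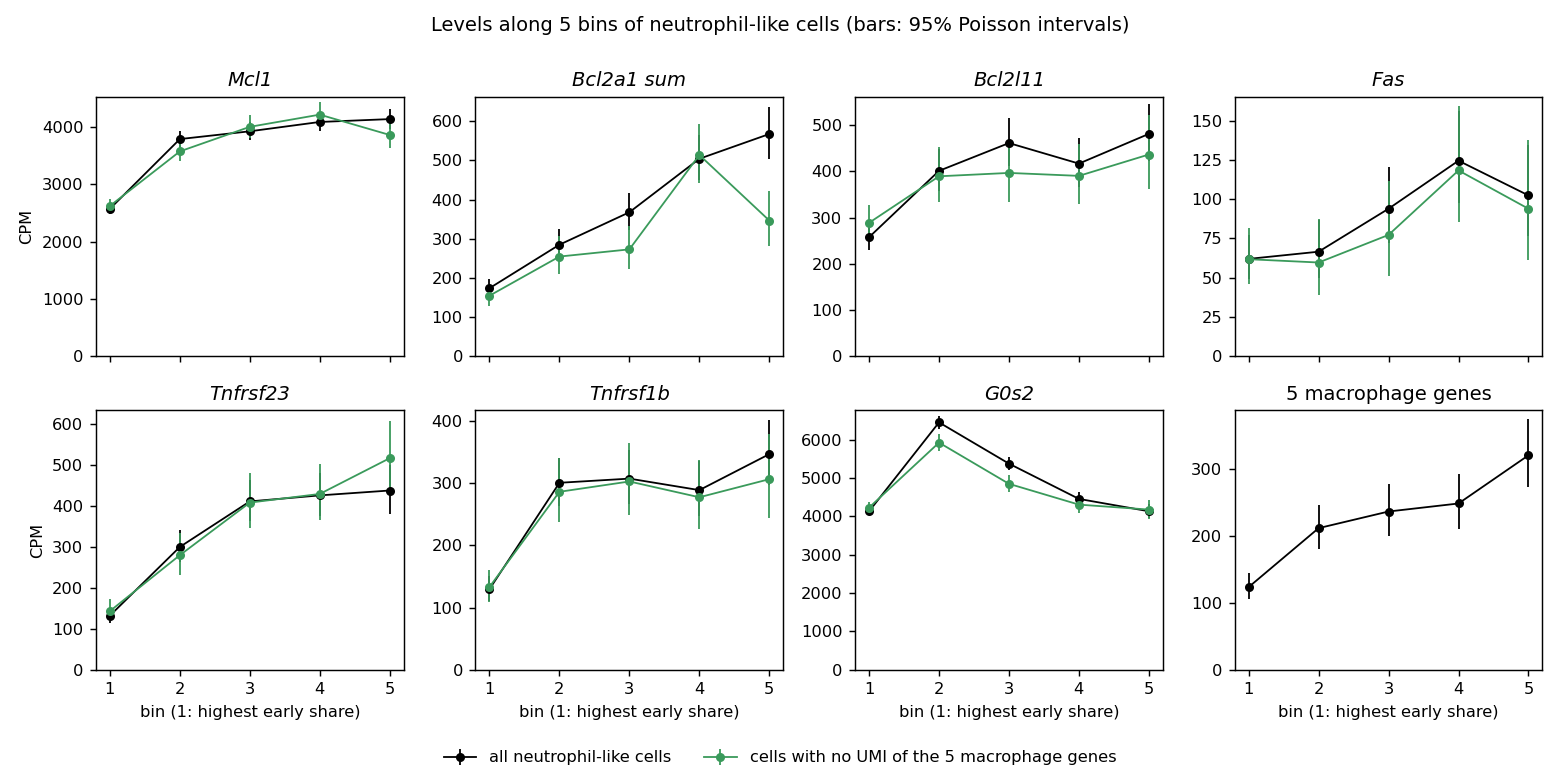
CPM of Mcl1, the Bcl2a1 sum, Bcl2l11, Fas, Tnfrsf23, Tnfrsf1b, G0s2 and the 5 macrophage genes in 5 bins of neutrophil-like cells, from a high to a low share of early neutrophil genes. Black points are all cells, green points the cells without a UMI of the macrophage genes, and bars are exact 95% Poisson intervals. The Bcl2a1 sum goes from 173 CPM in bin 1 to 568 in bin 5, and G0s2 is highest in bin 2 at 6447 CPM.

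The 249 neutrophil-like cells with the highest share of UMIs from 6 interferon-response genes (Ifit1, Ifit3, Isg15, Rsad2, Usp18 and Cmpk2) were set against the others, a comparison chosen after seeing the data. Mcl1 was at 4178 CPM in these 249 cells and at 3340 in the other 993, a log2 ratio of 0.32 (0.26 to 0.38), with 0.55 within 4T1p and 0.17 within 4T1m. The Bcl2a1 sum was at 454 and 305 CPM, a ratio of 0.58. That ratio was 0.53 within 4T1p and 0.02 (-0.29 to 0.32) within 4T1m, and 107 of the 249 cells were from 4T1p against 137 of the 993. The higher Bcl2a1 sum of these cells was thus not seen within 4T1m. Bcl2l11 had a ratio of 0.18 (-0.01 to 0.37) and Fas near 0 (-0.44 to 0.42).

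The next question was how the genes differed between the library labelled as the tumor that responds to anti-PD1 and the one labelled as the tumor that resists it. Within neutrophil-like cells, Bcl2a1b was lower in the library labelled 4T1m than in 4T1p and passed 1 log2 unit, at 161 against 363 CPM (-1.17, -1.38 to -0.96). Bcl2a1a was at 86.3 against 129.8 CPM (-0.59, -0.92 to -0.25) and Bcl2a1d at 30.2 against 42.4 (-0.49, -1.07 to 0.12). The Bcl2a1 sum was 278 against 535 CPM, a ratio of -0.95 (-1.12 to -0.78). Of the 8 members with at least 200 UMIs, 1 was lower by over 1 log2 unit where 2.64% of 1935 genes were, and 0 were higher where 5.12% were.

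Bcl2a1b had the same direction outside the neutrophils. In macrophage-like cells Bcl2a1b was at 497 CPM in 4T1m and 759.8 in 4T1p, a ratio of -0.61 (-0.68 to -0.54). Bcl2a1a had -0.21 (-0.32 to -0.10) and Bcl2a1d -0.03 (-0.17 to 0.10) there. Bcl2a1b was lower in 4T1m in 10 of the 11 clusters, with intervals clear of 0 in 8, and higher in macrophage-like cluster 9. One of these 8 is the lymphocyte cluster, where all 20 UMIs of 4T1p came from 1 cell. Bcl2a1a and Bcl2a1d were lower in 8 of the 10 clusters that had UMIs in both libraries, with an interval clear of 0 in none of these 8. Both were higher in the other 2, and there the interval was clear of 0 for Bcl2a1a in cluster 9 (1.39, 0.28 to 2.75) and for Bcl2a1d in clusters 3 (0.56, 0.25 to 0.88) and 9 (1.30, 0.09 to 2.80). The unequal change showed as well in the make-up of the Bcl2a1 sum. Bcl2a1b gave 67.8% of its UMIs in neutrophil-like cells of 4T1p (63.2 to 72.2, n = 429) and 58.1% in those of 4T1m (54.7 to 61.4, n = 847), and 63.3% and 55.4% in macrophage-like cells. How the reads of the 3 near-identical genes were assigned was not tested.

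The 5 macrophage genes moved with this difference. In neutrophil-like cells they summed to 274.5 CPM in 4T1p and 188 in 4T1m. In neutrophil-like cells without a UMI of them, 131 from 4T1p and 653 from 4T1m, Bcl2a1b was at 292 and 141 CPM, a ratio of -1.05, and the Bcl2a1 sum was at 443 and 241 CPM. Within cluster 1 Bcl2a1b was at 529 CPM in 4T1p and 272 in 4T1m, and within cluster 8 at 264 and 110.0 CPM, so it was lower in 4T1m with the cluster held the same.

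Over all neutrophil-like cells the ratios of the other members ranged from -0.16 to 0.32. The ratios of 4T1m over 4T1p were -0.13 for Mcl1 (-0.18 to -0.07), 0.11 for Bcl2l11 (-0.08 to 0.30), 0.10 for Fas (-0.30 to 0.52), -0.16 for Tnfrsf23 (-0.36 to 0.05), 0.32 for Tnfrsf1b (0.08 to 0.57) and -0.07 for G0s2 (-0.12 to -0.02). Mcl1, G0s2 and Tnfrsf23 did not keep one direction across clusters. Mcl1 was at 4597 CPM in 4T1p and 3802 in 4T1m in cluster 1, but at 2027 and 2621 in cluster 8, and G0s2 at 6341 and 5712 in cluster 1, but at 3842 and 4814 in cluster 8. Tnfrsf23 had a ratio of -0.31 (-0.58 to -0.03) in cluster 1 and 0.93 (0.17 to 1.80) in cluster 5, where 4T1p had 15 UMIs. Tnfrsf1b was higher in 4T1m in cluster 6 (0.84, 0.17 to 1.59) and cluster 8 (1.13, 0.31 to 2.08). Both had too few UMIs to be counted, with 21 and 13 in 4T1p. The median was 0.07 over all genes with at least 200 UMIs and -0.10 over the 8 members. In macrophage-like cells Bcl2l11 was at 255 CPM in 4T1m and 149 in 4T1p, a ratio of 0.78 (0.64 to 0.91). Over the clusters of all classes it was higher in 4T1m in 9 of 11, with intervals clear of 0 in 3. These were macrophage-like clusters 2 and 3 and neutrophil-like cluster 8. In macrophage-like cluster 0 it was lower (-0.43, -1.22 to 0.37). The macrophage-like class was made of different clusters in the libraries. Cluster 3, the macrophage-like cluster with the highest level of Bcl2l11, held 78 of 765 macrophage-like cells in 4T1p and 239 of 895 in 4T1m, and cluster 4, with the lowest, held 227 and 74. Within clusters 2 and 3 the ratio of Bcl2l11 was 0.47 and 0.59. Over all macrophage-like cells Tnfrsf1b had 0.42 (0.23 to 0.62) and Mcl1 0.19 (0.15 to 0.23). Within clusters 2 and 3 Tnfrsf1b had 0.21 (-0.10 to 0.53) and 0.25 (-0.08 to 0.59). Mcl1 had -0.07 and 0.07 in these clusters. Of the 7 members with at least 200 UMIs in macrophage-like cells, 0 were higher by over 1 log2 unit where 7.19% of 5466 genes were, and 0 were lower where 1.35% were. Their median was 0.19, and that of all genes 0.16.

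Over 20 other choices of cells, classes and totals the neutrophil-like ratio of Bcl2a1b ranged from -1.32, with a mitochondrial limit of 5%, to -1.04, with lineages named by marker sums. The macrophage-like ratio of Bcl2l11 ranged more widely, from 0.61 with cells required to hold a UMI of Ptprc to 1.05 with the limit of 5% and 1.18 as UMIs per cell, so it passed 1 log2 unit under both of the latter. That of G0s2, which rests on 181 and 75 UMIs, ranged from 0.35 to 1.48.

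**Figure D4:**
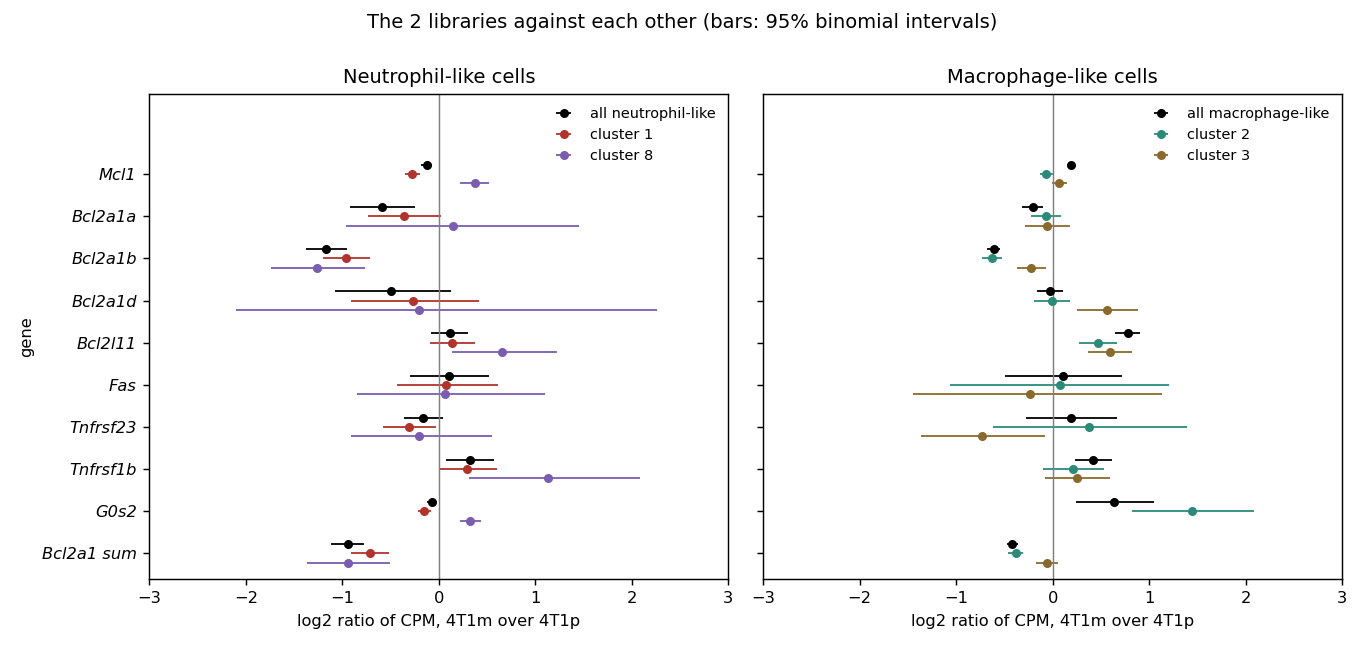
Log2 ratio of CPM in 4T1m over 4T1p for the 9 genes and the Bcl2a1 sum in neutrophil-like cells with clusters 1 and 8, and in macrophage-like cells with clusters 2 and 3, with exact 95% intervals; points with under 3 UMIs in either library are not drawn. Bcl2a1b lies at -1.17 in neutrophil-like and -0.61 in macrophage-like cells, while Fas lies at 0.10 in both.

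The limit on mitochondrial UMIs removes barcodes that may be dying cells, so the 9 genes were also read above it. It removed 443 barcodes of 4T1p and 560 of 4T1m. Lineages were named by marker sums on both sides of the limit, which gave 256 neutrophil barcodes above it and 1290 under it, and 504 and 1830 macrophage barcodes. The median mitochondrial share above the limit was 25.2% in neutrophil and 27.0% in macrophage barcodes. Unlike the levels above, CPM across the limit were therefore scaled to totals without mitochondrial UMIs, and all ratios and counts here rest on that scale. In neutrophil barcodes no member passed 1 log2 unit (0 of 8 higher where 2.05% of 2386 genes were, 0 of 8 lower where 0.88% were). Mcl1 was at 3596 CPM above and 3467 under the limit, and Bcl2l11 at 465 and 380.1 CPM, a ratio of 0.29 (0.10 to 0.48). The Bcl2a1 sum was at 484 and 349.9 CPM, a ratio of 0.47, while the 5 macrophage genes were at 611 and 242 CPM.

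Macrophage barcodes differed more across the limit. G0s2 was at 124 CPM above and 20.2 under it, a ratio of 2.62 (2.29 to 2.94), with 2.47 in 4T1p and 2.67 in 4T1m. The 8 neutrophil markers were also higher, at 1597 CPM above and 944 under the limit, a ratio of 0.76. Their ratio was 0.32 in 4T1p and 0.94 in 4T1m. These markers were used to name the lineage, which limits their level in macrophage barcodes, whereas G0s2 was not used. Their ratio therefore does not measure how much neutrophil RNA these barcodes held. Bcl2a1b was lower above the limit, at 301 against 628 CPM (-1.06, -1.23 to -0.90), and Bcl2l11 was higher, at 353 against 215 CPM (0.71, 0.55 to 0.87), with 1.27 in 4T1p and 0.42 in 4T1m. Mcl1 was at 1336 and 1686 CPM, a ratio of -0.34. Among the 7 members with enough UMIs, 1 was higher by over 1 log2 unit where 5.46% of 5985 genes were, and 1 was lower where 1.57% were. Over both libraries Mcl1 and the 3 Bcl2a1 genes were thus lower, and Bcl2l11 higher, in macrophage barcodes above the limit. Within 4T1p the interval of Bcl2a1d included 0 (-0.16, -0.54 to 0.20). These genes varied among macrophage-like clusters, Bcl2l11 from 33.2 CPM in cluster 4 to 318 in cluster 3. Barcodes above the limit were not clustered. A part of a different mix of macrophage states, or of other cells' RNA, was not tested.

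**Figure D5:**
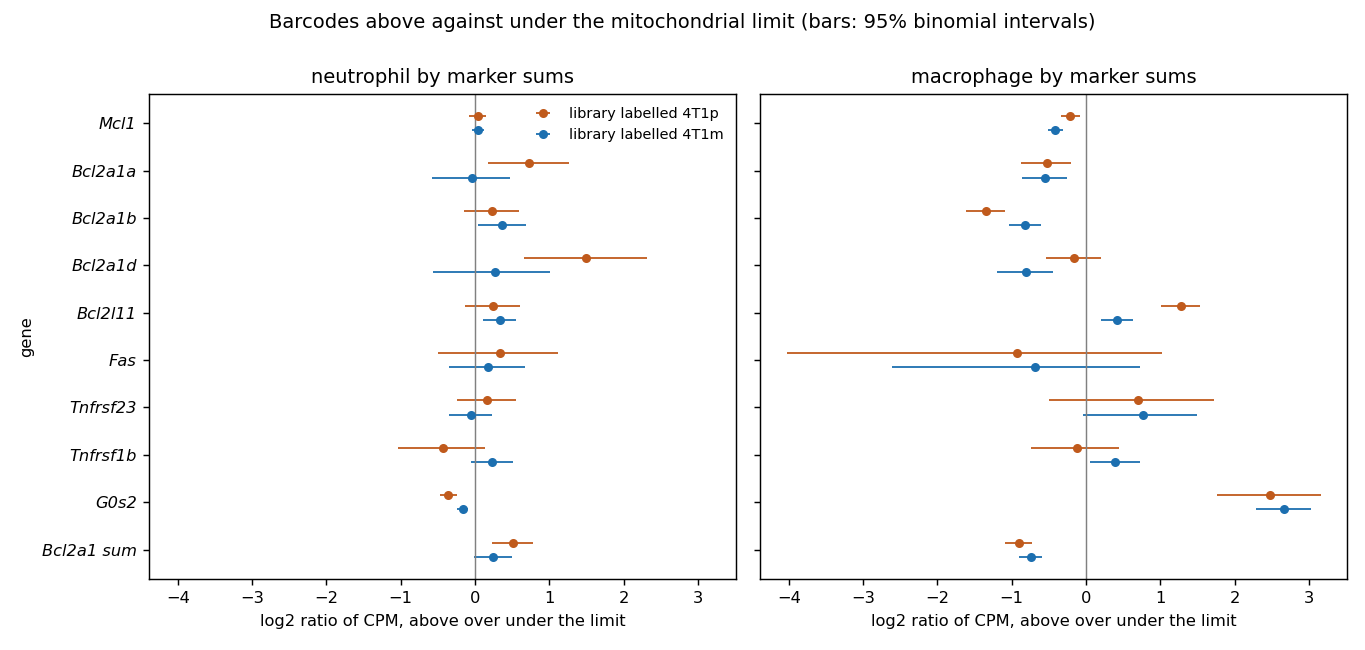
Log2 ratio of CPM in barcodes above over barcodes under the mitochondrial limit for the 9 genes and the Bcl2a1 sum, by lineage and library, with exact 95% intervals. The totals behind these CPM leave out mitochondrial UMIs. In macrophage barcodes G0s2 lies at 2.47 in 4T1p and 2.67 in 4T1m, and in neutrophil barcodes Mcl1 lies at 0.03 and 0.04.

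The wider death and survival pathway was read from 59 further genes. Of these, 39 had at least 200 UMIs over both classes, 10 were higher in neutrophil-like cells by over 1 log2 unit (11.1% of all genes) and 6 were lower (49.7%). On the side of the survival cytokines, Pim1, a kinase induced by cytokine receptors, was at 3092 CPM against 846 in macrophage-like cells (1.87), and Csf3r, the receptor of G-CSF and one of the markers, was at 900 against 39.4 (4.51). Csf2rb, the shared chain of the GM-CSF receptor, was at 300.2 against 226 CPM (0.41).

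On the side of the death receptors, Traf1, an adaptor of TNF receptors, was at 315 against 74.8 CPM (2.08), and Birc3, an inhibitor of apoptosis that joins such receptors, at 293 against 86.3 (1.76). Cflar, which blocks caspase-8, was at 330.3 against 480 CPM (-0.54), and Tnf, a ligand of Tnfrsf1b, at 329 against 708 (-1.11). Cflar did not keep this direction, with 0.26 (0.07 to 0.45) within 4T1p and -0.89 within 4T1m. Tnf had -0.77 within 4T1p and -1.13 within 4T1m. Casp4, an inflammatory caspase, was at 414 against 95.9 CPM (2.11). Around G0s2, the lipid droplet genes Hilpda, an inhibitor of the same lipase, and Plin2, a coat protein, were at 1582 against 756 (1.06) and 828 against 458 CPM (0.85). Hilpda had 1.55 within 4T1p and 0.83 within 4T1m. The higher genes not yet given were Bcl2l1, a guard of the BCL-2 family (1.71), the receptor gene Tnfrsf26 (2.46), the first TNF receptor Tnfrsf1a (1.05) and Pnpla2, the lipase that G0s2 blocks (1.31). The lower genes, like these named here after their values were seen, were Bak1, a pore former (-3.005), Ripk3 (-2.76) and Mlkl (-4.61) of the necroptosis pathway, the BH3-only genes Bad (-1.74) and Bbc3 (-1.39), and Tnf. Mlkl rests on 3 UMIs in neutrophil-like cells.

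Between the libraries, 21 pathway genes had enough UMIs in neutrophil-like cells. Of these, 1 was higher in 4T1m by over 1 log2 unit where 5.12% of 1935 genes were, and 1 was lower where 2.64% were. Usp9x, a deubiquitinase that stabilizes the Mcl1 protein, was at 79.4 CPM in 4T1m and 29.9 in 4T1p (1.41, 0.80 to 2.08), and Cycs, which encodes cytochrome c, at 43.6 and 89.8 CPM (-1.04, -1.47 to -0.61). In macrophage-like cells 3 of 37 were higher where 7.19% of 5466 genes were, and 0 were lower where 1.35% were. These 3, named after their values were seen, were Usp9x (1.14), Apaf1 (1.57), the partner of cytochrome c, and Cflar (1.06). Huwe1 (0.89, 0.68 to 1.10) and Fbxw7 (0.85, 0.44 to 1.27) were higher in 4T1m there as well. In neutrophil-like cells Huwe1 (0.77, 0.17 to 1.43) and Fbxw7 (1.19, -0.03 to 2.70) had too few UMIs to be counted. The interval of Fbxw7 included 0 there. Of the listed genes for turnover of the Mcl1 protein, Usp9x alone had enough UMIs in both classes, and Usp9x was higher in 4T1m in both. No common direction is therefore read for these genes, and no level of the Mcl1 protein was measured.

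Genes whose CPM followed the members most closely across the 11 clusters were found among 6361 genes. The 11 points share 2 libraries and differ in depth, so these correlations are descriptions. Mcl1 was closest to Ets2 (r = 0.992) and, of the other members, to Tnfrsf1b (0.968). G0s2 was closest to Asprv1 (0.994), Tnfrsf23 to Nfil3 (0.983), Tnfrsf1b to Tbk1 (0.976), Bcl2l11 to Tnfaip3 (0.959) and Fas to Ankrd33b (0.957). Bcl2a1d was closest to Irf5 (0.964), Bcl2a1b to Bcl2a1d (0.944) and Bcl2a1a to Milr1 (0.899). Mcl1 had negative correlations with all 3 Bcl2a1 genes, from -0.67 to -0.30.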

How the data were processed

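GR-1+ cells of 1 4T1p and 1 4T1m tumor preparation were sequenced on a droplet 3′ platform, and the authors mapped the reads with Cell Ranger to mm10, as the submitters' processing notes state. The deposited matrices hold raw UMI counts per gene and barcode, with no normalization. The study's methods describe filters on genes, UMIs, mitochondrial share and Ptprc, of which the Ptprc filter was used here only as an alternative, so classes rebuilt here can differ from the study's.

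The 9 genes, the gene lists and the pathway list were chosen with earlier results of these data known. The early neutrophil list behind the bins was used without 1 of its planned genes, which is not reported here, a change made after the data were seen. Barcodes with 250 to 5000 genes, at most 27000 UMIs and at most 12.5% mitochondrial UMIs were kept (3220 of 4390). Doublets were predicted per library with Scrublet in scanpy 1.11.5 (13 and 44 barcodes) in place of the caller of the study, which left 3163. Clustering used Seurat 5.3.0 and sctransform 0.4.2 in R 4.3.3, with 3000 variable genes, 11 principal components and Louvain resolution 0.8, without the 9 genes. Clusters were named from marker lists, and the low-UMI cluster 0 (median 902 UMIs) stayed in the macrophage-like class.

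UMIs were summed per class and library and given as CPM, with exact Poisson intervals. In the comparison across the mitochondrial limit, mitochondrial UMIs were left out of the totals. Ratios and shares have exact binomial intervals from scipy 1.17.1. Shares at 1000 UMIs were computed as the hypergeometric mean over all draws, with the interval at the mean number of cells, in place of a single random draw, a choice made after the data were seen because single draws moved the shares of the 62 lymphocyte-cluster cells. With 1 library per tumor type no test and no p-value was computed. A gene was counted as higher or lower beyond 1 log2 unit if it had at least 200 UMIs over both groups. Named pathway genes were the 10 with the most UMIs in neutrophil-like cells and those past 1 log2 unit between the libraries there. The code was tested on simulated Poisson counts with log2 changes of 1.5, 2, -1.5 and -3 put in. All lay beyond the limit of 1, and no variation between cells or libraries was simulated, so this checks the calculation only. For neutrophil over macrophage cells (7498 genes) the code called 100% of the changed genes and 0 of the others at each size put in. For the libraries within neutrophils (2840 genes) the values were 100% and 0.0378%. Alternatives covered filters, doublets, class naming, clustering, totals, the UMI minimum and the Bcl2a1 sum. Gene positions are from GENCODE vM21 and promoter sequences from RefSeq, both on GRCm38, and the identifiers of all 9 genes matched.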

Additional observations from a re-analysis of the deposited data

Results flagged for a closer look

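For Mcl1 the libraries differed in opposite directions in the 2 cell classes. The log2 ratio of 4T1m over 4T1p was -0.13 in neutrophil-like and 0.19 in macrophage-like cells, and with 1 library each the difference was not tested. After centring on the median of all genes the macrophage-like value was 0.03. G0s2 also had opposite directions, with -0.068 in neutrophil-like and 0.64 in macrophage-like cells. The macrophage-like values of G0s2 were 17.5 and 27.2 CPM in 4T1p and 4T1m, and this difference was not tested either. Both lay within the interval of the lymphocyte cluster over both libraries (6.30 to 37.4 CPM), which rests on 6 UMIs and cannot tell low expression from background.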

How the results depend on the processing

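No paired analysis was possible because each tumor type had 1 library, and for the same reason no library could be left out. Of the single ratios of the 9 genes under the alternatives, 134 of 186 for neutrophil-like over macrophage-like cells, 158 of 164 for the libraries in neutrophil-like cells and 120 of 142 for the libraries in macrophage-like cells moved by less than their counting interval. As UMIs per cell over both libraries, Mcl1 (-0.010) and Bcl2l11 (-0.27) turned for neutrophil-like over macrophage-like cells, which was not seen within 4T1p. On that scale Bcl2a1a between the libraries in macrophage-like cells gave 0.20. Ordering by the first principal component turned Bcl2a1b (-0.13) and Fas (-0.65) along the bins, and Fas was -0.065 within 4T1p. The cause was not tested.

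Counts beyond 1 log2 unit moved as follows. The main counts over all genes were 673 higher and 3025 lower of 6083 for neutrophil-like over macrophage-like cells. Between the libraries they were 99 and 51 of 1935 in neutrophil-like and 393 and 74 of 5466 in macrophage-like cells. The numbers of genes tested under the alternatives are not given here, so the member counts below are not read against a share. For neutrophil-like over macrophage-like cells, 3 members were higher as UMIs per cell (218 genes higher), 1 member was lower after centring on the median (1705 genes higher and 1826 lower) and 1 with the Bcl2a1 genes summed, and 1917 genes were lower with a mitochondrial limit of 5%. For the libraries in neutrophil-like cells, 0 members were lower with the Bcl2a1 genes summed, 64 genes were higher as UMIs per cell, and 25 were lower in cells free of macrophage UMIs. In macrophage-like cells 1 member was higher with lineages by marker sums, the limit of 5%, log-normalization, equal weight of cells (774 genes higher) or without cluster 0, and 2 as UMIs per cell (1266 genes higher and 16 lower). Centring gave 224 and 124 genes there. A minimum of 50 UMIs gave 5060 genes lower between classes, 327 higher and 142 lower between libraries in neutrophil-like cells, and 705 and 163 in macrophage-like cells. A minimum of 1 UMI gave 4383 higher and 6465 lower, 859 and 4181, and 1438 and 2439. The choices without cluster 0, with the cycling cluster, with at least 1000 UMIs, without mitochondrial UMIs in the totals and free of macrophage UMIs were added after seeing the data. Depth limits Fas and Tnfrsf23 in macrophage-like cells, which rest on 104 and 169 UMIs.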
